A study of Mus musculus with 16 samples.

Results

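The 10 genes described here make, use or recycle nicotinamide adenine dinucleotide (NAD) in the left ventricle of male C57BL/6J mice: Nampt, Nmnat1, Nmnat3, Nmrk2, Nadk2, Nnt, Sirt1, Sirt3, Parp1 and Cd38. They were taken by name from 53764 genes in a table of raw RNA-seq counts, and all 10 passed the filter on low counts that left 15841 genes for testing. The study crossed diet with the drug ertugliflozin, an inhibitor of the glucose transporter SGLT2, which returns glucose from urine to blood. From 8 weeks of age, and for 4 months, the mice ate either a low fat control diet (CD) or a high fat, high sucrose diet (HFHS), each without drug or with ertugliflozin mixed in at 0.5 mg per g of diet. Poly(A) RNA was sequenced from 4 animals in each of the 4 groups, called CD untreated, CD ertugliflozin, HFHS untreated and HFHS ertugliflozin, giving 16 libraries. The 4 animals of each group were chosen by the submitters as representative from a larger set.

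NAD carries electrons between fuel oxidation and the respiratory chain, and the heart, dense in mitochondria, holds much of it. Most cells rebuild it from nicotinamide: Nampt makes nicotinamide mononucleotide, and the Nmnat enzymes join that to an adenylate, Nmnat1 in the nucleus and Nmnat3 in mitochondria. Sirtuins, PARPs and Cd38 cleave NAD and release nicotinamide, so they draw on the pool that the salvage route refills, while Nadk2 and Nnt supply mitochondrial NADP and NADPH.

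Total counts ran from 14637669 to 21452212 per library. The lowest count of any of these 10 genes in any library was 36, for Nmrk2. Markers of ventricular cardiomyocytes were high in every library, with summed levels of 92800 to 116000 CPM (counts scaled to a common library size). The CD untreated group reached the highest valve and atrial marker levels, although its ranges overlapped those of the other 3 groups. The summed level of the valve and cartilage list was 66.7 to 281 CPM in CD untreated and 30.8 to 90.6 CPM in the other 3 groups. That of the atrial list was 1130 to 2480 CPM against 971 to 1210 CPM. The valve and cartilage levels of CD untreated 2 and 3, at 281 and 242 CPM, were the highest. Results that rest on this group are therefore also given without those 2 libraries, or with marker scores as covariates, where the value moved. In bulk tissue, fewer cells of a type and less RNA per cell cannot be told apart.

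Levels differed widely between the genes. Scaled by exon length (RPKM, which divides the scaled count by kilobases of exon), Nampt stood highest at 77.7 ± 5.07 (SD, n = 16), followed by Nadk2 at 24.1 ± 1.94 and Parp1 at 15.4 ± 0.975 RPKM. Nmnat1, the nuclear enzyme, reached 10.6 ± 0.75 RPKM and the mitochondrial Nmnat3 4.41 ± 0.38 RPKM. Sirt3, the main mitochondrial deacetylase, lay at 7.55 ± 0.601 RPKM, above Sirt1, the nuclear deacetylase, at 4.02 ± 0.262 RPKM. Cd38, an NAD glycohydrolase on the cell surface, lay at 5.03 ± 0.878 RPKM, and Nmrk2, the muscle kinase for nicotinamide riboside, at 2.19 ± 0.609 RPKM. The ranges over single libraries of Cd38, Nmnat3 and Sirt1 sat close together, and the order among those 3 was not tested.

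Sirt3 was the single gene of the 10 that passed the test in any comparison, and its start region is shown because Sirt3 shares it with a neighbour. Sirt3 (ENSMUSG00000025486, GRCm38 chromosome 7, 140863666 to 140882309, minus strand) lies beside the proteasome gene Psmd13, which is read in the opposite direction. In RefSeq the outer Sirt3 start is 85 bases from the Psmd13 start and the inner Sirt3 start 525 bases, while in GENCODE Psmd13 begins at 140881968, inside Sirt3. The 90 bases before the outer Sirt3 start, taken from RefSeq GRCm38.p6 at chr7:140882310-140882399 on the minus strand and written 5′ to 3′, run across the gap between both RefSeq starts. Capitals mark the ETS motif CCGGAAG, found here on the other strand.
Sirt3: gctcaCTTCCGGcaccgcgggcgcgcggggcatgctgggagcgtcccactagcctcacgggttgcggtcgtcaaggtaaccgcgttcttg
Of these bases, 68.9% were G or C. The same search over both strands of 32841 windows of 250 bases before a gene start found CCGGAAG in 6.91%. That motif was added after the windows had been read.

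The window before the RefSeq start of Nmnat3 is shown because Nmnat3 varied most like Sirt3 among the 10 genes. In GENCODE, Nmnat3 (ENSMUSG00000032456) lies on chromosome 9, 98287435 to 98420438, on the plus strand. The 250 bases before its RefSeq start span chr9:98296320-98296569 (RefSeq GRCm38.p6, plus strand). They thus lie inside the GENCODE gene and not before its start. Capitals mark the GC box GGGCGG.
Nmnat3: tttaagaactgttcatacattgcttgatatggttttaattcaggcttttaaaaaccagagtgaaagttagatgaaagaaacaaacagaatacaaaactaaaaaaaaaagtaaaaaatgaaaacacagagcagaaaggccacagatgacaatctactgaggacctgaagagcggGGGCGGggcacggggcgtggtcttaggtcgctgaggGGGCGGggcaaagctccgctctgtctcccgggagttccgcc
This window was 45.6% G or C, against 52.4% at the median of all windows, and held 2 GC boxes. At least 1 GC box, on either strand, was found in 32.7% of all windows. The 250 base window before the outer Sirt3 start held no GC box, and that before the inner start held 3. Neither gene's windows held the half-site AAGGTCA of estrogen-related receptors, present in 4.08% of all windows, or the E-box CACGTG, present in 6.02%. RefSeq windows were matched for 8 of the 10 genes. Sirt1 had the highest content of G or C, 79.2%, with 2 E-boxes, and Cd38 had 48.8% with a single CpG. The windows of Sirt1 and Cd38 also lie inside their GENCODE genes. These matches describe letters in a window and show no binding.

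**Figure D1:**
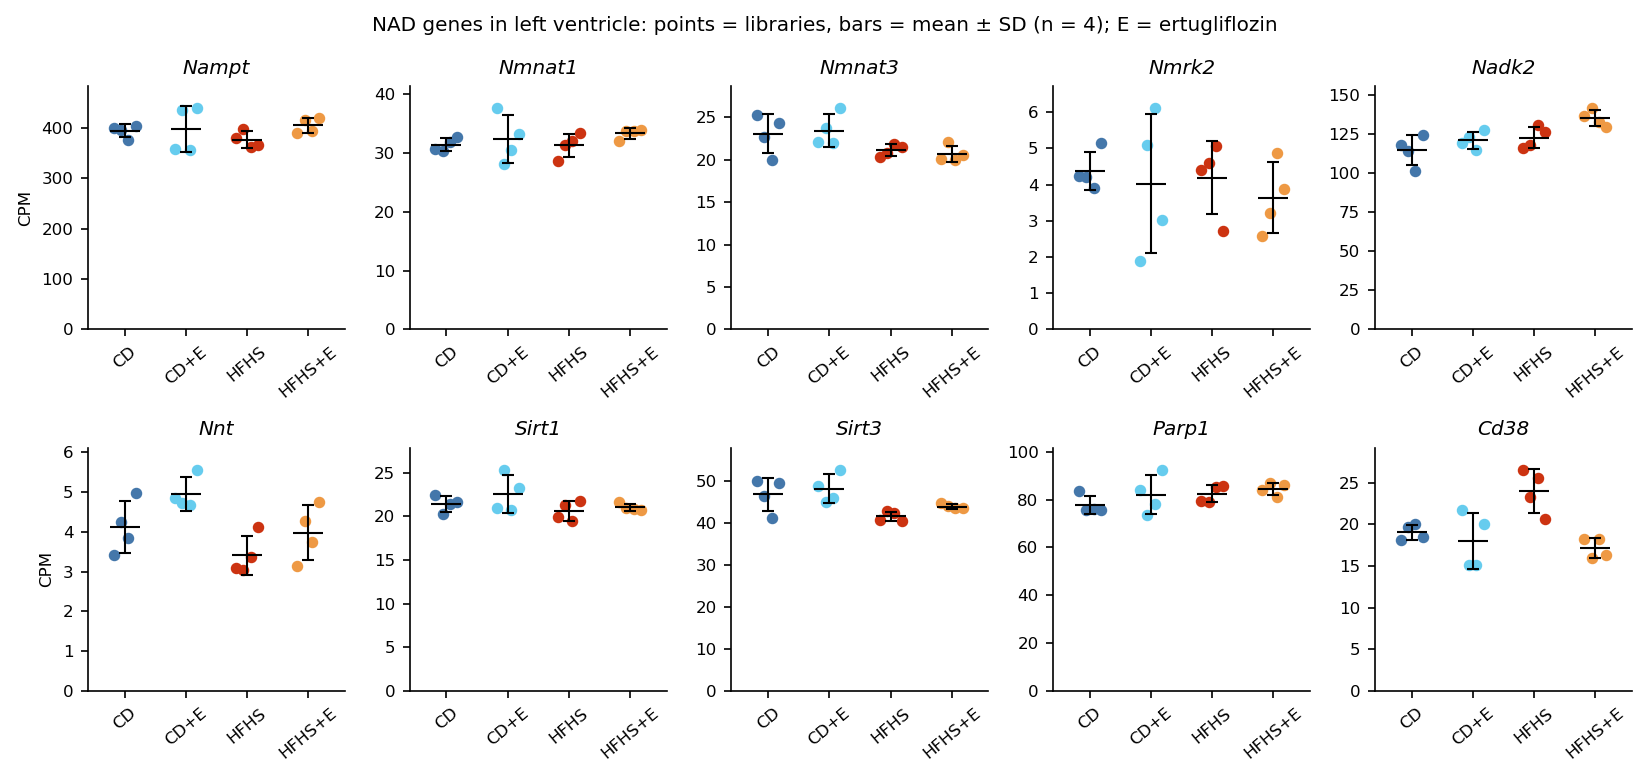
Level of each of the 10 genes in CPM (vertical axes, from 0) in the 4 groups (horizontal axes; E, ertugliflozin), with a point per library and bars for the mean ± SD (n = 4). Sirt3 and Nmnat3 sit lower on HFHS than on CD in the group means, and Cd38 is highest in HFHS untreated, with 20.6 to 26.6 CPM.

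Sirt3 was lower on the HFHS diet. Its level was 49.98, 46.5, 41.2 and 49.5 CPM in CD untreated and 40.7, 42.7, 42.3 and 40.4 CPM in HFHS untreated. Among drug-fed animals it was 48.9, 45.0, 45.9 and 52.7 CPM on CD and 44.8, 43.9, 43.4 and 43.5 CPM on HFHS. Every HFHS ertugliflozin library was below every CD ertugliflozin library, while CD untreated 3 lay within the range of HFHS untreated. Of all tested genes, 6.38% were lower without overlap in that drug-fed comparison. On HFHS, all 4 drug-fed libraries were above all 4 untreated ones (0.08 ± 0.06 on the log2 scale, edgeR adjusted p = 1), as were 1.31% of all tested genes. Averaged over drug arms, Sirt3 fell by 0.15 ± 0.04 (SE) on the log2 scale, to 0.90 of its CD level (edgeR quasi-likelihood test, Benjamini-Hochberg adjusted p = 0.0296). It was the 1 gene of the 10 called in that comparison, in which 11.6% of all tested genes were called. A count of 1 in 10 lies near that background, and 4 of the 10 had an unadjusted edgeR p under 0.05 beside 26.5% of all genes. Within each drug arm the log2 differences were -0.17 ± 0.06 without drug (edgeR adjusted p = 0.161) and -0.13 ± 0.06 with drug (edgeR adjusted p = 0.253), neither past the threshold of 0.05.

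The Sirt3 call passed in 18 of 26 alternative analyses. It was lost when any 1 of 8 libraries was left out, with edgeR adjusted p up to 0.0665: CD untreated 1 or 4, CD ertugliflozin 1 or 4, HFHS untreated 4, or HFHS ertugliflozin 2, 3 or 4. Without CD untreated 2 and 3 the log2 difference was -0.20 (edgeR adjusted p = 0.00963), and with valve and atrial scores as covariates it was -0.20 (edgeR adjusted p = 0.0238). Of the exon bases of Sirt3, 12.7% overlap Psmd13 or Ric8a on the opposite strand, and whether counting used strand was not stated. Psmd13, a proteasome subunit gene, also fell on HFHS, by 0.11 ± 0.03 (edgeR adjusted p = 0.0358). That Psmd13 call held in 14 of 26 alternative analyses. Ric8a had a log2 difference of -0.08 ± 0.04 (edgeR adjusted p = 0.259).

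Nmnat3 lay lower on HFHS in the means, without passing the test. It read 25.3, 22.7, 19.99 and 24.3 CPM in CD untreated and 20.4, 20.8, 21.8 and 21.5 CPM in HFHS untreated. With drug it read 22.1, 23.7, 21.9 and 26.1 CPM on CD and 20.1, 22.0, 20 and 20.5 CPM on HFHS. CD untreated 3 was again low, and the diet groups overlapped in both drug arms. The averaged log2 difference was -0.15 ± 0.05 (edgeR adjusted p = 0.0679).

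Across the 16 libraries, log2 CPM of Nmnat3 and Sirt3 had a Pearson correlation of 0.81, the highest of the 45 pairs of these genes. Diet groups, depth and tissue make-up are shared by both genes in each library. Sirt3 also went with the score of ventricular cardiomyocyte markers (r = 0.70, 16 libraries), as did Nmnat3 (r = 0.77). Both ran opposite to fibroblast markers, at -0.63 for Sirt3 and -0.60 for Nmnat3, and to endothelial markers, at -0.61 and -0.57. Of the 10 ventricular markers, 5 were called lower on HFHS averaged over drug arms and none higher, beside 5.01% and 6.59% of all tested genes. By sign 8 were negative and 2 positive, Ryr2 (0.111 ± 0.078) and Ttn (0.135 ± 0.109), with a list median of -0.12. Those called included the myosin light chains Myl3 (log2 difference -0.19 ± 0.03) and Myl2 (-0.21 ± 0.04), the calcium pump regulator Pln (-0.16 ± 0.04) and the troponin Tnni3 (-0.21 ± 0.05), by edgeR adjusted p of 0.00142 to 0.00632. Summed ventricular markers ran from 103000 to 116000 CPM in CD untreated and from 92800 to 112000 CPM in HFHS untreated. The part of these markers in the Sirt3 difference was not tested.

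The 3 genes most like Sirt3 over the 16 libraries were Samm50, of the outer membrane sorting complex (Pearson r = 0.92, Spearman rho = 0.88), Aifm1, the apoptosis inducing factor (r = 0.90, rho = 0.87), and Pcca, a subunit of propionyl-CoA carboxylase (r = 0.89, rho = 0.88). They were picked as the highest of all tested genes with a symbol, so the size of these values is set by that choice.

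**Figure D2:**
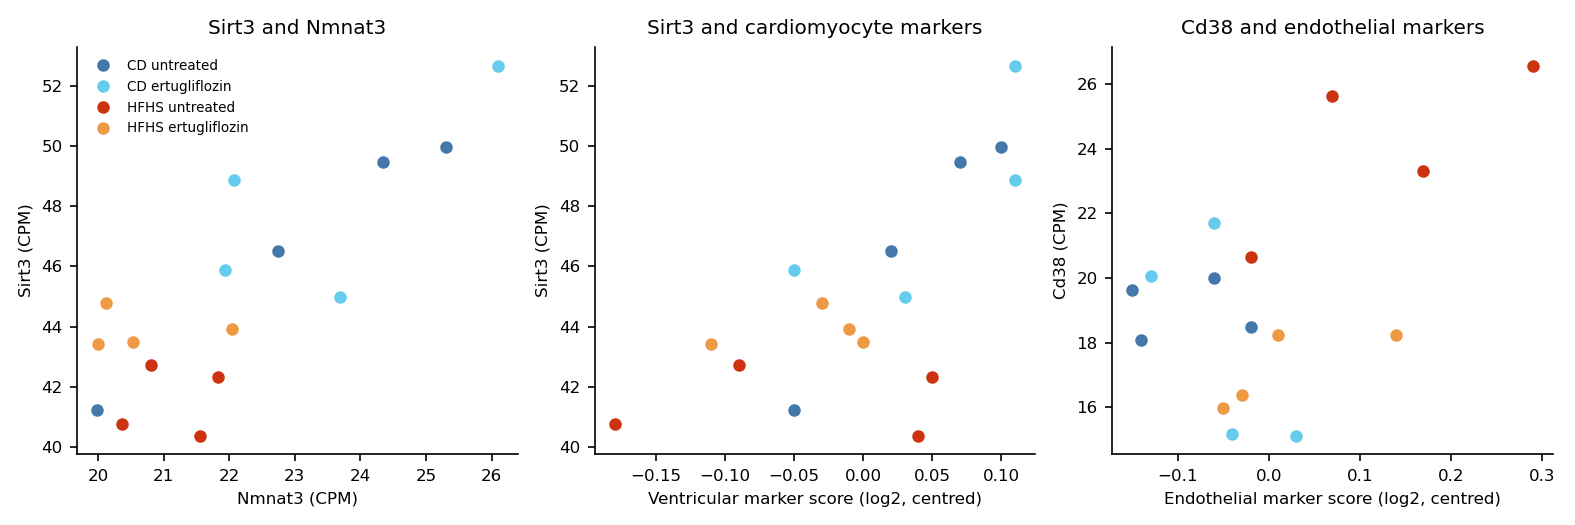
Each point is 1 of the 16 libraries, coloured by group. Left, Sirt3 against Nmnat3, both in CPM (r = 0.81 on log2 CPM). Middle, Sirt3 in CPM against the ventricular marker score (mean centred log2 level). Right, Cd38 in CPM against the endothelial marker score; the HFHS untreated libraries include the 3 highest Cd38 levels.

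Nadk2, the mitochondrial NAD kinase that makes NADP, had a diet difference of the opposite sign. Its level was 118, 114, 102 and 125 CPM in CD untreated and 116, 118, 131 and 126 CPM in HFHS untreated. It was 119, 123, 115 and 127 CPM in CD ertugliflozin and 137, 142, 133 and 130 CPM in HFHS ertugliflozin. All 4 HFHS ertugliflozin libraries were above all 4 CD ertugliflozin libraries, which held for 6.79% of all tested genes in the higher direction, whereas the untreated groups overlapped. The diet difference averaged over drug arms was 0.13 ± 0.04 on the log2 scale (edgeR adjusted p = 0.0516), just short of the threshold. DESeq2 gave 0.13 (adjusted p = 0.0375) and limma-voom with sample weights 0.15 (adjusted p = 0.0156). Without CD untreated 2 and 3 it was 0.09 (edgeR adjusted p = 0.212). The drug difference of Nadk2 was 0.14 ± 0.06 on HFHS (unadjusted p = 0.0306 by edgeR) and 0.08 ± 0.06 on CD. Averaged over diets it was 0.11 ± 0.04 (unadjusted p = 0.0179 by edgeR, adjusted p = 0.863). None of these drug differences passed the adjusted test. Nadk2 levels ran opposite to macrophage markers over the 16 libraries (r = -0.74), a list whose summed level was 428 to 509 CPM in HFHS ertugliflozin and 495 to 690 CPM in CD ertugliflozin. The part of macrophages in the Nadk2 values was not tested.

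Nnt, the transhydrogenase of the inner mitochondrial membrane, needs a caution. C57BL/6J, the strain of all 4 groups, is known to carry a deletion of several Nnt exons. The annotation holds 2 Nnt models on chromosome 13 that overlap: ENSMUSG00000116207, with all its exon bases inside the other and with 0 counts in all 16 libraries, and ENSMUSG00000025453 (119335448 to 119408997, minus strand), with 47 to 110 counts. Since 47.4% of the exon bases of the latter are shared with the former, its level cannot be read as the expression level of Nnt. Its values were 3.42, 4.25, 3.85 and 4.97 CPM in CD untreated, 4.85, 4.72, 4.66 and 5.56 CPM in CD ertugliflozin, 3.10, 3.04, 3.37 and 4.12 CPM in HFHS untreated, and 3.14, 4.27, 3.73 and 4.75 CPM in HFHS ertugliflozin. The averaged diet difference was -0.30 ± 0.11 (edgeR adjusted p = 0.0745).

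Cd38 was highest in HFHS untreated. It stood at 18.1, 19.6, 19.99 and 18.5 CPM in CD untreated, at 26.6, 23.3, 25.6 and 20.6 CPM in HFHS untreated, at 21.7, 15.1, 15.2 and 20.1 CPM in CD ertugliflozin and at 18.3, 16.0, 18.3 and 16.4 CPM in HFHS ertugliflozin. All 4 HFHS untreated libraries were above all 4 CD untreated and all 4 HFHS ertugliflozin libraries. Among all tested genes, the groups did not overlap in the higher direction for 4.11% in the diet comparison without drug and in the lower direction for 1.54% in the drug comparison on HFHS. The log2 difference between diets without drug was 0.33 ± 0.11 (unadjusted p = 0.00579 by edgeR, adjusted p = 0.114). Between drug and no drug on HFHS it was -0.48 ± 0.11, a fold of 0.717 with a 95% interval of 0.614 to 0.839 (unadjusted p = 0.00028 by edgeR, adjusted p = 0.653). That p was rank 5 of 15841 tested genes, yet no gene passed the adjusted test in that comparison, by edgeR, DESeq2 or limma-voom. The drug on CD gave -0.08 ± 0.11, and the difference between the drug effects on both diets was -0.40 ± 0.15 (unadjusted p = 0.0168 by edgeR, adjusted p = 1).

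The diet difference of Cd38 without drug went down to 0.02 (edgeR adjusted p = 0.968) when valve and atrial scores were covariates. The valve and cartilage score ran from 0.23 to 2.02 in CD untreated and from -1.29 to 0.01 in HFHS untreated. These ranges do not overlap, so that fit cannot tell diet from score in this comparison. Without CD untreated 2 and 3 the diet difference was 0.39 (edgeR adjusted p = 0.209). The drug difference on HFHS was -0.43 with valve and atrial scores as covariates. Endothelial markers had the signs of Cd38: 15 of 15 were higher in HFHS untreated than in CD untreated by sign (median 0.20). Of these, Kdr (0.46 ± 0.07, edgeR adjusted p = 0.00386) and Cdh5 (0.35 ± 0.07, edgeR adjusted p = 0.0157) passed the test, beside 1.45% of all tested genes called higher there. For the drug on HFHS 15 of 15 had a negative sign (median -0.11), with none passing. The medians over all tested genes were -0.002 for the diet without drug and 0.001 for the drug on HFHS. Summed endothelial markers ran from 2440 to 2830 CPM in CD untreated, 2820 to 3560 CPM in HFHS untreated and 2780 to 3260 CPM in HFHS ertugliflozin. Erythroid markers had those signs too, 7 of 7 positive for the diet without drug (median 0.14) and 7 of 7 negative for the drug on HFHS (median -0.41), with none passing. Their summed levels were 255 to 433 CPM, 318 to 495 CPM and 250 to 337 CPM in those 3 groups. B and plasma cell markers summed to 13.2 to 17.9 CPM, 19.3 to 22.9 CPM and 16.9 to 19.7 CPM in the same groups, and none of the 11 tested passed. Over all 16 libraries Cd38 had r = 0.47 with the endothelial score, 0.34 with the B and plasma cell score and -0.44 with the valve and cartilage score. The 12 tested valve and cartilage markers had signs opposite to Cd38. All 12 were negative for the diet without drug, with 2 called lower beside 0.619% of all tested genes. All 12 were positive for the drug on HFHS, with none passing. The part of these cells in the Cd38 values was not tested.

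The remaining genes had small differences, none past the test. Nampt, the enzyme that sets the pace of salvage, had group means of 394 ± 13 (SD, n = 4) CPM in CD untreated, 397 ± 45.6 in CD ertugliflozin, 376 ± 16.4 in HFHS untreated and 404 ± 14.5 in HFHS ertugliflozin. The 95% interval of its averaged diet difference ran from a fold of 0.923 to 1.05. Nmnat1 stayed between 28.1 and 37.6 CPM in all libraries, with an averaged diet fold between 0.939 and 1.09. Sirt1 ranged from 19.5 to 25.4 CPM and Parp1, the PARP that responds to DNA breaks, from 73.6 to 92.5 CPM. Their averaged diet folds had intervals of 0.883 to 1.02 and 0.982 to 1.11.

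Nmrk2 was the least certain of the set. Its level was 4.25, 4.199, 3.90 and 5.14 CPM in CD untreated and 1.88, 5.10, 6.11 and 3.03 CPM in CD ertugliflozin. It was 4.42, 4.59, 5.05 and 2.72 CPM in HFHS untreated and 2.58, 3.21, 4.88 and 3.87 CPM in HFHS ertugliflozin. All groups overlapped, and CD ertugliflozin held both the lowest and the highest library. The averaged diet fold of 0.927 had an interval of 0.683 to 1.26, too wide to place it on either side of 1. Of the Nmrk2 exon bases, 14.6% overlap the antisense gene Atcayos. Atcayos had a mean of 58.5 CPM and 673 to 1474 counts per library, beside 36 to 114 counts for Nmrk2. Whether counting used strand was not stated, and the part of Atcayos reads in the Nmrk2 values was not tested.

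**Figure D3:**
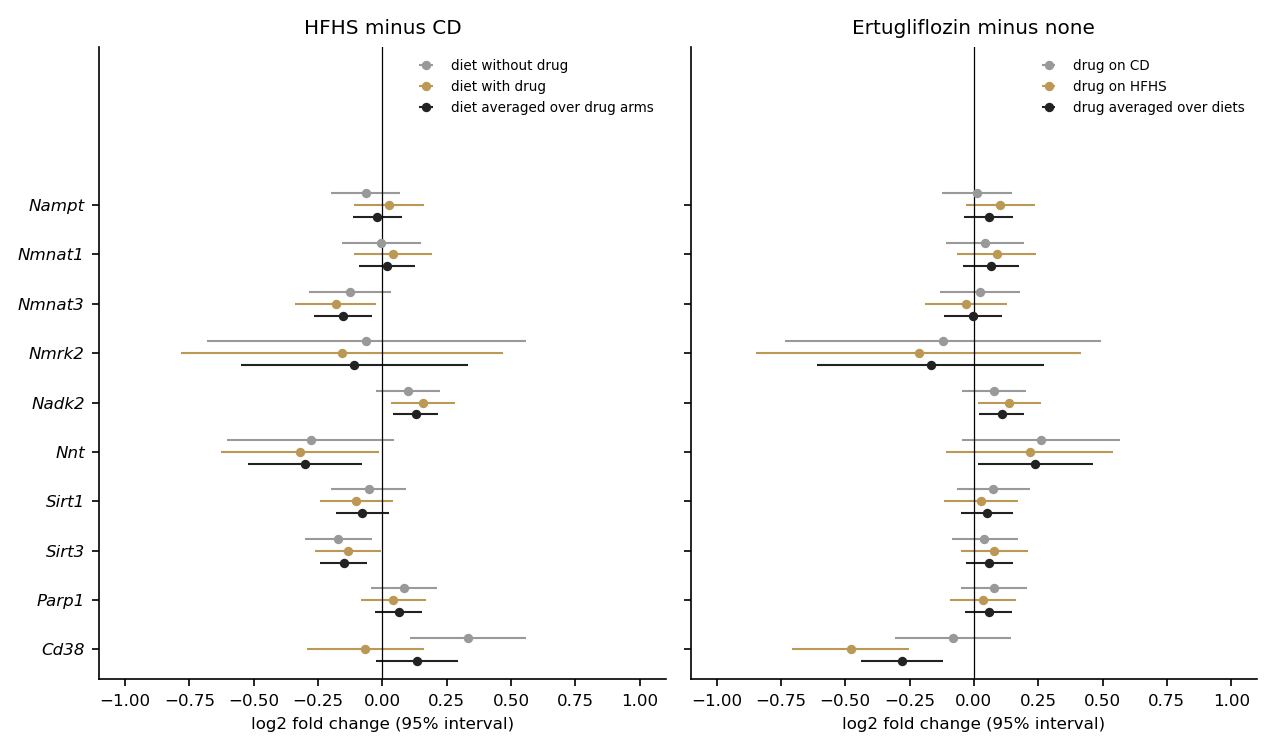
Log2 fold change (horizontal axes) of the 10 genes for HFHS against CD (left) and ertugliflozin against no drug (right), within each arm and averaged; points are edgeR estimates and lines 95% intervals, unadjusted. Sirt3 alone passed the adjusted test, for the averaged diet difference (-0.15). For the drug on HFHS the Cd38 interval lies wholly below 0 and the Nadk2 interval wholly above 0, neither past the adjusted test.

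Taking the comparisons in turn, 0 of the 10 genes passed for the diet without drug, where 2.06% of all tested genes passed, and 0 for the diet with drug, where 3.69% passed. At an unadjusted edgeR p under 0.05 there were 2 and 4 of the 10 (16.5% and 18.5% of all genes), and DESeq2 and limma-voom also called 0 in both. For ertugliflozin 0 of the 10 passed on CD (0.0189% of all genes), 0 on HFHS (0% of all genes), 0 averaged over diets (0%) and 0 for the interaction (0.0189%), again with 0 by DESeq2 and limma-voom. The unadjusted counts there were 0, 2, 3 and 1, beside 6.17%, 4.02%, 5.57% and 4.27% of all genes. The median log2 difference of the 10 genes was -0.05 for the averaged diet comparison and 0.06 for the averaged drug comparison, beside -0.01 and 0 over all tested genes. Comparisons that share a group are not independent of each other.

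Beyond the 10 genes, counts of called genes in the averaged diet comparison are given beside the 11.6% of all tested genes called there, 6.59% higher and 5.01% lower. Of 5 other sirtuins, 2 passed as lower on HFHS and none as higher, while by sign 4 were negative and 1, Sirt6, positive (0.06, edgeR adjusted p = 0.679), with a list median of -0.09 beside -0.01 over all tested genes. Sirt7, a nucleolar sirtuin, fell from 13.6 ± 0.405 CPM in CD untreated to 11.3 ± 1.13 CPM in HFHS untreated, with 13.4 ± 0.396 and 11 ± 1.29 CPM in the drug-fed groups (SD, n = 4). Its averaged log2 difference was -0.27 ± 0.06 (edgeR adjusted p = 0.00795), and it passed in all 26 alternative analyses. Sirt4, a mitochondrial sirtuin, fell by 0.20 ± 0.06 averaged over drug arms (edgeR adjusted p = 0.0431) but passed in 9 of 26. Its log2 difference was -0.34 ± 0.09 without drug (edgeR adjusted p = 0.0509) and -0.06 ± 0.09 with drug (edgeR adjusted p = 0.78).

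Of 14 other PARP family genes, 2 fell and none rose, a share near the 11.6% of all tested genes called, and the list median was -0.04. Parp2, which like Parp1 answers DNA breaks, had means of 19.5 ± 0.541 and 19.9 ± 1.15 CPM in the CD groups and 16.6 ± 1.24 and 17.0 ± 1.15 CPM in the HFHS groups, untreated and drug-fed in that order. Its averaged difference was -0.23 ± 0.05 (edgeR adjusted p = 0.0056), and 25 of 26 alternatives passed. Parp12, an interferon-inducible PARP, fell by 0.18 ± 0.05 (edgeR adjusted p = 0.0265), and with drug alone by 0.27 (edgeR adjusted p = 0.0375). Of 26 interferon-inducible genes, 19 were called lower on HFHS with drug (list median -0.76), beside 1.53% of all tested genes. None passed without drug (list median -0.07), where 0.619% of all tested genes were called lower. For the drug on CD, 23 of the 26 were positive (list median 0.39) and 3 were called higher. For the interaction 3 were called lower. In each of these last comparisons, 3 of all tested genes (0.0189%) were called. For the drug on HFHS, all 26 were negative (list median -0.38) and none passed, as was so for all tested genes (0% called). Parp1 had an averaged log2 difference of 0.06 ± 0.04, which did not pass. The difference between Parp1 and Parp2 was not tested.

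Of 6 tested genes of salvage and NAD transport, 0 passed in the averaged diet comparison (median log2 difference -0.13). Of the 11 genes that make NAD from tryptophan or nicotinic acid, 5 could be tested, and Nadsyn1, the NAD synthetase of that route, fell by 0.22 ± 0.07 (edgeR adjusted p = 0.0442, passing in 9 of 26 alternatives). Aox3, an aldehyde oxidase listed for nicotinamide clearance, fell from 1.69 ± 0.252 to 0.792 ± 0.111 CPM without drug (averaged log2 difference -1 ± 0.25, edgeR adjusted p = 0.0145). The Aox3 counts were low, with a highest count of 54. Aox1 of the same list had the opposite sign, at 68.8 ± 12.4 and 79.7 ± 4.02 CPM in the untreated CD and HFHS groups. Its averaged log2 difference was 0.25 ± 0.08 (edgeR adjusted p = 0.0653). Of the 7 tested genes of that list 1 was called, beside 11.6% of all tested genes, and by sign 4 were positive and 3 negative.

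Among 11 genes of NADP and NADPH supply (median log2 difference -0.05), 2 rose and none fell, beside 6.59% of all tested genes called higher: Me1, the cytosolic malic enzyme, and Aldh1l2, a mitochondrial folate enzyme. Me1 rose from 119 ± 7.52 to 150 ± 16 CPM without drug and from 119 ± 11.9 to 163 ± 1.44 CPM with drug. Its averaged log2 difference of 0.40 ± 0.05 (edgeR adjusted p = 9.88e-05) passed in all 26 alternatives. Aldh1l2 rose by 0.32 ± 0.09 (edgeR adjusted p = 0.0343), passing in 13 of 26.

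Among 13 NADH shuttle genes (median log2 difference -0.09), 4 were called lower and none higher, beside 5.01% of all tested genes called lower. By sign 11 were negative and 2 positive, Gpd1 (0.176 ± 0.065, edgeR adjusted p = 0.0911) and Ldha (0.113 ± 0.042, edgeR adjusted p = 0.0878). The 4 called were Ldhb, the heart lactate dehydrogenase, Slc25a13, a mitochondrial aspartate carrier, Got1, the cytosolic aspartate aminotransferase, and Gpd1l. Ldhb fell from 1280 ± 84.7 to 1090 ± 27.4 CPM without drug and from 1350 ± 56.4 to 1130 ± 33 CPM with drug. Its averaged difference was -0.25 ± 0.04 (edgeR adjusted p = 0.000235). The other 3 had differences of -0.23 ± 0.05, -0.21 ± 0.06 and -0.13 ± 0.03 (edgeR adjusted p = 0.00745, 0.0187 and 0.0167), and all 4 passed in every one of 26 alternatives. Leaving aside the interferon-inducible genes, no gene of any of these pathway lists passed for ertugliflozin on either diet, averaged over diets, or for the interaction.

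**Figure D4:**
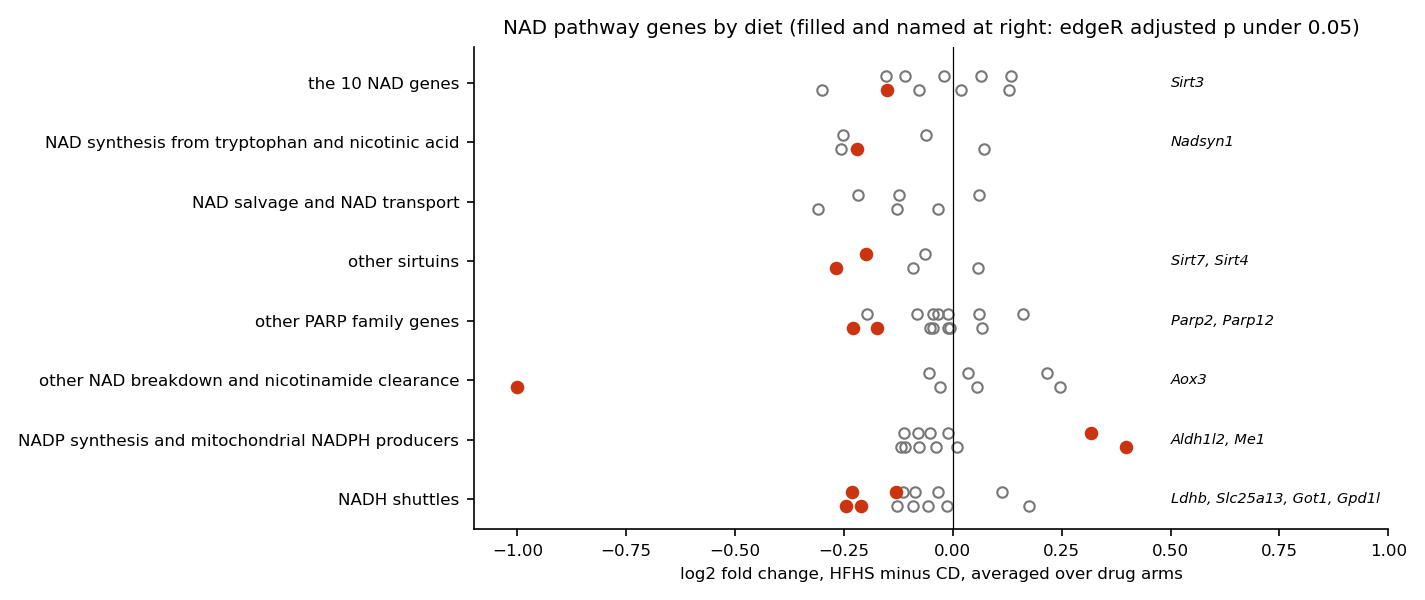
Averaged diet log2 difference (HFHS minus CD, horizontal axis) of the tested genes of each NAD list (rows), with filled red points past the edgeR adjusted p of 0.05 and named at the right. Most called genes lie left of 0, while Me1 and Aldh1l2 lie to the right.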

How the data were processed

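The authors deposited raw read counts per Ensembl gene and regularized log2 values (rlog) of the same 16 libraries. Per the submitters' processing notes, reads were processed with STAR 2.6.0c, featureCounts of Subread 1.6.2, FastQC 0.11.7 and DESeq2 1.22.1 on mm10; the sources used here state no annotation, no strand setting and no rule for multi-mapped reads. Symbols came from GENCODE M21 (GRCm38), and 95 of 53764 genes had none.

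edgeR 4.0.16 (limma 3.58.1, R 4.3.3) was run on the deposited counts with filterByExpr, TMM factors and a robust quasi-likelihood fit with a mean per group; p-values were adjusted by Benjamini-Hochberg over all 15841 tested genes, with a threshold of 0.05. CPM use TMM-scaled totals. The code was tested on simulated data. DESeq2 1.42.0, limma-voom with sample weights and limma on the deposited rlog values were alternatives.

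The members and gene lists were chosen with earlier results of these data known. The text names all 10 members, up to 4 called genes per list and comparison by smallest p, and the 3 genes most correlated with a called member.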

Additional observations from a re-analysis of the deposited data

Results flagged for a closer look

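Dixon's ratio, the gap of an extreme library to its nearest neighbour over the group's range, exceeded the 95% critical value for 4 libraries in 2 of the 40 member and group sets tested, where chance gives about 1 in 20. Nmnat1 in HFHS ertugliflozin 1 read 32.0 CPM beside 33.7 to 33.8 CPM in the other 3 libraries (ratio 0.925); the other 3 lie close together, which makes the ratio large. Parp1 in CD untreated 1 read 83.5 CPM beside 75.6 to 76.2 CPM (ratio 0.927).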

How the results depend on the processing

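Of the 10 genes, 1 was called for the averaged diet difference; the count was 2 under upper-quartile scaling (with Nmnat3), DESeq2 and limma-voom (both with Nadk2), and 2 without CD untreated libraries 2 and 3 together (with Nmnat3), and ran from 0 to 2 when each library was left out. The counts for the other 6 comparisons stayed at 0. Deviations of same-numbered animals had correlations from -0.24 to 0.313 (mean 0.037, over 24 pairs). Pairs of different number ran from -0.264 to 0.267 (mean -0.012, over 72 pairs). Each library could correlate best with any of 4 numbers, and 8 of 16 libraries did so with their own. The ranges of same and different number overlap, and these values do not settle whether the numbers pair animals. The main fit did not use the numbers, and the replicate block gave a count of 2 (Nnt added). Upper-quartile scaling split the averaged diet calls into 914 higher and 1021 lower, against 1044 and 793. Signs turned in 17 of 1289 single-gene values, all for results that did not pass the test: with valve and atrial scores as covariates, the averaged diet difference was -0.0166 for Cd38, -0.0242 for Nmnat1 and 0.125 for Nmrk2. When each library was left out it ran from -0.0423 to 0.00769 for Nampt (above 0 without CD ertugliflozin 2 or 4), from -0.0126 to 0.0591 for Nmnat1 (below 0 without CD ertugliflozin 2) and from -0.227 to 0.0281 for Nmrk2 (above 0 without CD ertugliflozin 3). For Nmnat3 the averaged drug difference was 0.0015 without a filter, 0.000494 by limma-voom with sample weights and from -0.0361 to 0.0169 when each library was left out. The cause was not tested. The number of animals, counts as low as 36 for Nmrk2 and the unstated strand setting limit what these data can show.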
